A study of Mus musculus with 4 samples.

Results

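The genes described here are 10 receptors and bridging molecules with which macrophages take up dying cells and modified lipoproteins: Mertk, Axl, Gas6, Pros1, Mfge8, Timd4, Cd36, Stab1, Msr1 and Marco. They were chosen by symbol, and all 10 were found among the 23284 gene symbols of the deposited tables. The cells were macrophages grown from the bone marrow of wild-type mice, a primary culture model. One group received galectin-1, a lectin that binds galactosides, given as recombinant mouse protein for 24 h, and the other received phosphate-buffered saline, the vehicle, for the same time. Both had been exposed to lipopolysaccharide (LPS) at 1 µg/ml for 1 h beforehand, so the vehicle cells are LPS-stimulated cells and not resting ones. There were 2 libraries per group and 4 in all. The sources used here do not give strain, age, sex or galectin-1 dose. They do not say either whether replicates were separate cultures or mice, so a p-value speaks only of the spread among these 4 samples, part or all of which may be technical. Values are FPKM, fragments divided by transcript length and by the mapped fragments of the library, so that levels of different genes can be set side by side.

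Clearance of dying cells, or efferocytosis, begins when phosphatidylserine appears on the surface of an apoptotic cell. Some receptors, such as Timd4 and Stab1, bind the lipid directly, whereas the kinases Mertk and Axl need the bridging proteins Gas6 or Pros1, and Mfge8 links the lipid to integrins. Scavenger receptors such as Msr1, Marco and Cd36 bind oxidised or acetylated lipoproteins, microbial surfaces and debris, and some of them also assist in the uptake of dying cells. In macrophages Mertk is known as the receptor of the resting, tolerant state and Axl as one that inflammatory stimuli induce.

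The levels spanned a wide range, and the same genes were abundant with and without galectin-1. Msr1 alone made up 46.4% to 48.8% of the summed FPKM of the 10 genes in a library, and Cd36 a further 16.5% to 18.0%. The order of mean levels over the 4 libraries was Msr1, Cd36, Gas6, Mfge8, Axl, Mertk, Pros1, Stab1, Marco and Timd4. Msr1 was at least 2.63 times as high as Cd36 in each library, and Cd36 at least 1.40 times as high as Gas6. Gas6 was 1.28 to 1.38 times as high as Mfge8. Mfge8 and Axl did not differ beyond their spread: Mfge8 was higher in 3 of 4 libraries, with ratios from 0.999 to 1.14. Mertk and Pros1 exchanged places between the groups, as described below. Stab1 was below Pros1 in each library and 2.81 to 4.12 times as high as Marco, and Marco was at least 10.2 times as high as Timd4.

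**Figure D1:**
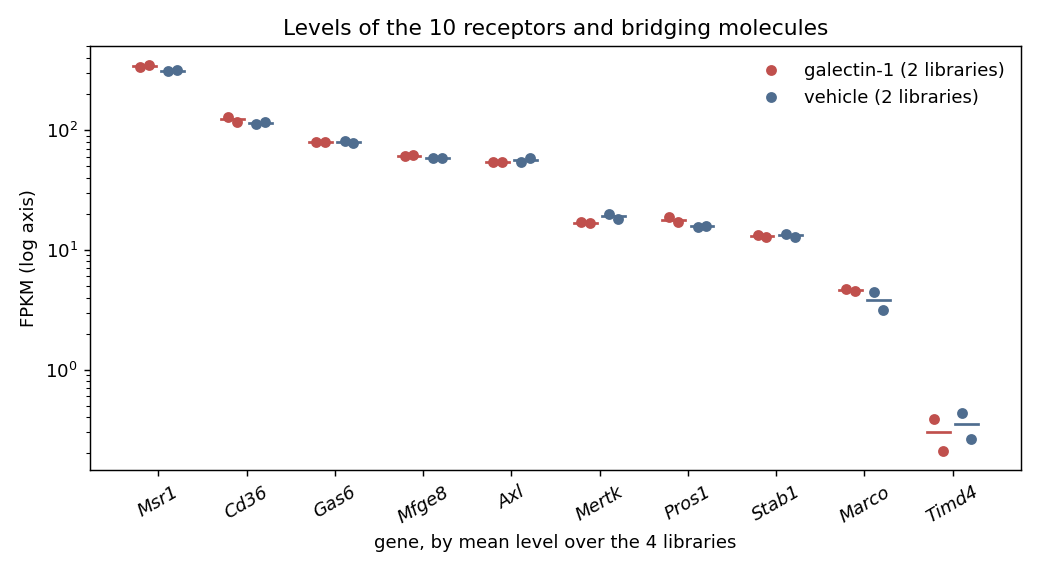
FPKM on a log axis for each of the 10 genes, ordered by mean level; points are libraries and short lines are group means, with galectin-1 in red to the left of vehicle in blue. Levels run from 312 to 347 FPKM for Msr1 down to 0.210 to 0.439 FPKM for Timd4, and the groups lie close together at each gene.

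The study asked what character galectin-1 gives to macrophages. In limma, with a Benjamini-Hochberg adjusted p under 0.05 over all 9380 genes of at least 1 FPKM on average, 0 of the 9 tested genes passed; Timd4 lay below the expression minimum. Among all tested genes 1.19% passed. An unadjusted p under 0.05 was found for 3 of the 9, Msr1, Pros1 and Mertk, against 23.2% of all tested genes. The groups did not overlap for 6 of the 9, against 55.4% of all tested genes. The median difference of the 9 was 0.07 on the log2(FPKM + 1) scale, galectin-1 minus vehicle, and that of all tested genes was 0.00. At a minimum mean of 5 FPKM, which left 8 of the members, these medians were 0.04 and 0.02. The 95% intervals, taken 1 gene at a time on that scale, reached at most 25.5% (Pros1) at the upper end and -19.2% (Mertk) at the lower end for the tested members other than Marco, whose interval reached 49.7%. No permutation test was run, since 2 against 2 libraries allow a 2-sided p of 0.333 at the lowest.

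**Figure D2:**
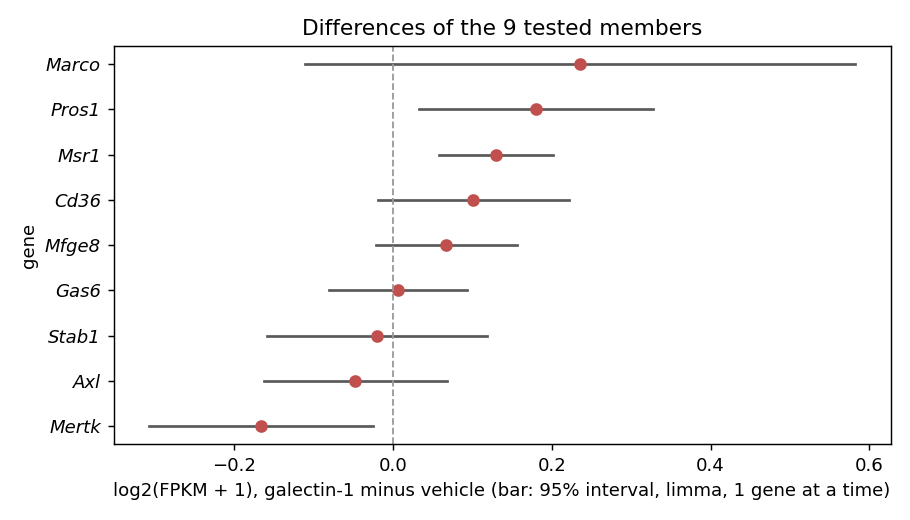
Difference in log2(FPKM + 1), galectin-1 minus vehicle, for the 9 tested genes, with 95% intervals from limma that are not adjusted for the number of genes. The intervals of Msr1, Pros1 and Mertk lie to 1 side of 0, the other 6 include 0, and that of Marco is the widest (-0.11 to 0.58).

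Of the receptor kinases, Mertk (chr2:128698915-128803162, mm10) had 17.0 and 16.7 FPKM in galectin-1 libraries, against 19.8 and 18.3 FPKM in vehicle libraries. Both galectin-1 libraries lay below both vehicle libraries. This gave a log2 difference of -0.17 with a standard error of 0.06 and a 95% interval of -0.31 to -0.02, and it missed the threshold (limma, adjusted p = 0.167). With any 1 library left out the difference ran from -0.22 to -0.11, the last without vehicle replicate 1, the library in which Mertk was highest. Axl (chr7:25756500-25788924), the second kinase of the family, had 54.6 and 54.5 FPKM with galectin-1, against 54.3 and 58.6 FPKM with vehicle. The groups overlapped, and vehicle replicate 2 was the high library. The log2 difference was -0.05 (95% interval -0.16 to 0.07, adjusted p = 0.583) and turned to 0.0065 without that library. Tyro3, the remaining kinase, was listed at 0.425 and 0.218 FPKM with galectin-1 and at 0.285 and 0.334 FPKM with vehicle, below the minimum for testing. Within a library Axl was 3.21 and 3.26 times as high as Mertk with galectin-1, against 2.74 and 3.21 times with vehicle.

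The bridging molecules of these kinases are the vitamin K-dependent proteins Gas6 and Pros1; Gas6 is a ligand of all the kinases of the family and Pros1, also known as anticoagulant protein S, of Mertk and Tyro3. Gas6 (chr8:13465374-13494535) had 79.8 and 79.3 FPKM with galectin-1, against 80.5 and 77.9 FPKM with vehicle. Both galectin-1 values lay between the vehicle values. The log2 difference was 0.01 (standard error 0.04, 95% interval -0.08 to 0.09, adjusted p = 0.939), so that a change of more than 6.64% up or 5.41% down lay outside the interval; its sign turned under each other scaling. Pros1 (chr16:62854307-62929346) had 18.7 and 17.2 FPKM with galectin-1, against 15.4 and 15.97 FPKM with vehicle. Both galectin-1 libraries were higher than both vehicle libraries. The log2 difference was 0.18 (standard error 0.06, 95% interval 0.03 to 0.33) and missed the threshold (limma, adjusted p = 0.156). With any 1 library left out it ran from 0.12 to 0.24.

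Pros1 and its receptor Mertk thus lay on opposite sides of each other in the 2 groups, a feature singled out after the values were seen. Pros1 was 1.10 and 1.03 times as high as Mertk in galectin-1 libraries, against 0.776 and 0.874 times in vehicle libraries. The ratio is formed within a library and does not depend on scaling between libraries. Which of the 2 genes is higher does depend on the transcript length used for each, and the fragment step below leaves that of Mertk open. Neither gene passed the test and the ratio itself was given none. Gas6 remained the more abundant ligand, at 4.27 and 4.62 times the level of Pros1 with galectin-1, against 5.23 and 4.88 times with vehicle.

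**Figure D3:**
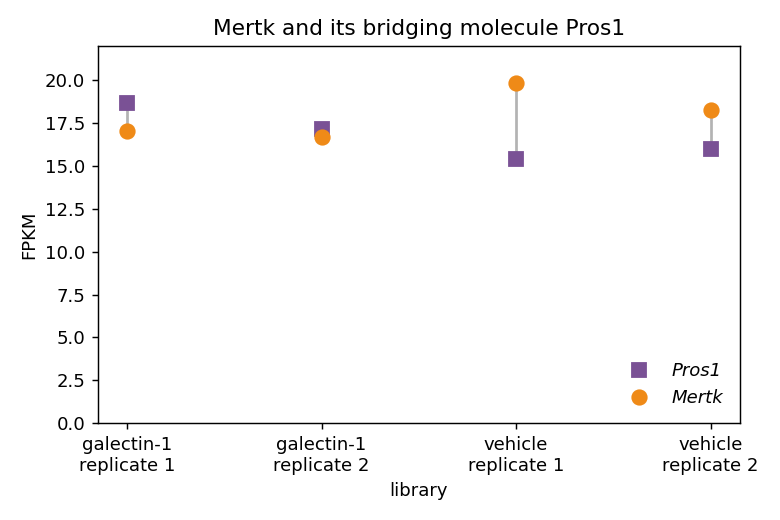
FPKM of Pros1 (squares) and Mertk (circles) in each library, joined by a grey line. Pros1 lies above Mertk in both galectin-1 libraries (18.7 and 17.2 against 17.0 and 16.7 FPKM) and below it in both vehicle libraries.

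Mfge8 (chr7:79133768-79149060), which bridges phosphatidylserine to integrins, had 60.4 and 62.1 FPKM with galectin-1, against 58.3 and 58.5 FPKM with vehicle. The groups did not overlap, but the gap was small. Their log2 difference was 0.07 (standard error 0.04, 95% interval -0.02 to 0.16, adjusted p = 0.326). Mfge8 binds integrins made of the Itgav chain with Itgb3 or Itgb5. Itgav had 59.6 and 61.2 FPKM with galectin-1, against 56.1 and 58.5 FPKM with vehicle. Itgb5 had 23.4 and 25.3 FPKM with galectin-1, against 21.8 and 21.7 FPKM with vehicle (log2 difference 0.15, adjusted p = 0.171). Itgb3 was low, at 1.37 and 1.54 FPKM with galectin-1, against 1.90 and 1.30 FPKM with vehicle, and its groups overlapped (-0.08, adjusted p = 0.784).

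Of the receptors that bind phosphatidylserine directly, Stab1 (chr14:31139017-31168651), a large receptor that also clears acetylated lipoprotein, had 13.3 and 12.9 FPKM with galectin-1, against 13.7 and 12.9 FPKM with vehicle. The groups overlapped, with a log2 difference of -0.02 (95% interval -0.16 to 0.12, adjusted p = 0.866), which turned to 0.018 without vehicle replicate 1. Exons of Stab1 overlap exons of Nt5dc2 on the opposite strand in GENCODE M21, and the sources used here do not say whether strand was used in counting. Exons of Gas6 likewise overlap those of Tmem255b, a gene not analysed here. Nt5dc2 had 16.8 and 16.7 FPKM with galectin-1, against 13.7 and 15.5 FPKM with vehicle. Timd4 (chr11:46810786-46844333), a marker of long-lived resident macrophages in several tissues, was near the floor, at 0.390 and 0.210 FPKM with galectin-1, against 0.439 and 0.264 FPKM with vehicle. The groups overlapped widely.

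The fragment numbers behind the low genes could be recovered, because FPKM of a gene moves in steps of 1 fragment. Multiplied by the relative depth of the libraries, the 4 values of 6 of the 10 genes stood in whole-number proportion within 0.01 of a fragment. For Timd4 the smallest such numbers were 11 and 5 fragments with galectin-1, against 12 and 7 with vehicle. For Marco they were 120 and 97 with galectin-1, against 111 and 75 with vehicle. For Pros1 they were 819 and 637 with galectin-1, against 656 and 659 with vehicle. With the longest coding transcript of each gene, those of Timd4, Marco, Pros1, Gas6 and Stab1 gave between 1.26e+07 and 1.35e+07 mapped fragments for vehicle replicate 1, values that lie close to each other. For Mertk the same step gave 5.41e+06, outside that range. Its proportion of 408 and 339 with galectin-1 to 462 and 412 with vehicle was therefore not read as fragment numbers. Whether a common factor, another transcript length or both are needed was not tested. Axl, Mfge8, Cd36 and Msr1 gave no whole numbers with up to 3000 fragments in vehicle replicate 1, the most that was tried. Larger numbers were not looked for, so abundant genes such as Msr1 may lie beyond the search.

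From summed fragments and depths, the log2 ratio of galectin-1 to vehicle was -0.20 for Timd4, with an exact 95% interval of -1.25 to 0.84. A difference of Timd4 within that interval was not detectable at this depth. The ratio was 0.20 for Pros1 (0.09 to 0.31), 0.01 for Gas6 (-0.05 to 0.06) and -0.02 for Stab1 (-0.10 to 0.06). For Marco it was 0.27 (-0.02 to 0.56). These intervals cover counting error only and compare the libraries, not the conditions.

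Of the scavenger receptors, Msr1 (chr8:39543232-39642750), the class A receptor for modified lipoproteins and bacterial surfaces, had 338 and 347 FPKM with galectin-1, against 312 and 314 FPKM with vehicle. The galectin-1 libraries were higher without overlap, by more than the spread within either group. On the log2 scale the difference was 0.13 (standard error 0.03, 95% interval 0.06 to 0.20), which had the smallest p of the 10 genes and missed the threshold over all genes (limma, adjusted p = 0.0902). Its adjusted p ran from 0.0611 to 0.254 over the other settings. Cd36 (chr5:17781690-17888959), a receptor for oxidised lipoprotein, thrombospondin and long-chain fatty acids, had 128 and 118 FPKM with galectin-1, against 113 and 116 FPKM with vehicle. The groups lay apart, narrowly, and galectin-1 replicate 1 was the high library. The log2 difference was 0.10 (95% interval -0.02 to 0.22, adjusted p = 0.283); it was 0.04 without galectin-1 replicate 1 and 0.16 without galectin-1 replicate 2.

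Marco (chr1:120474538-120505024), a class A scavenger receptor of bacteria and particles, had 4.71 and 4.50 FPKM with galectin-1, against 4.49 and 3.13 FPKM with vehicle. Vehicle replicate 2 stood apart below the other 3 libraries. The groups did not overlap, but only just: galectin-1 replicate 2 had 4.501 FPKM and vehicle replicate 1 had 4.490 FPKM. For Marco the log2 difference was 0.24 (standard error 0.14, 95% interval -0.11 to 0.58, adjusted p = 0.370). Leaving out vehicle replicate 2 made it 0.03, and leaving out vehicle replicate 1 made it 0.44, so 1 library decided its size. The exact 95% Poisson interval of vehicle replicate 2 was 2.46 to 3.92 FPKM and that of vehicle replicate 1 was 3.69 to 5.41 FPKM, which overlap. Such an overlap does not show that the gap lies within counting error, and the gap was not tested. Msr1 was 71.6 and 77.2 times as high as Marco with galectin-1, against 69.4 and 100.3 times with vehicle.

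**Figure D4:**
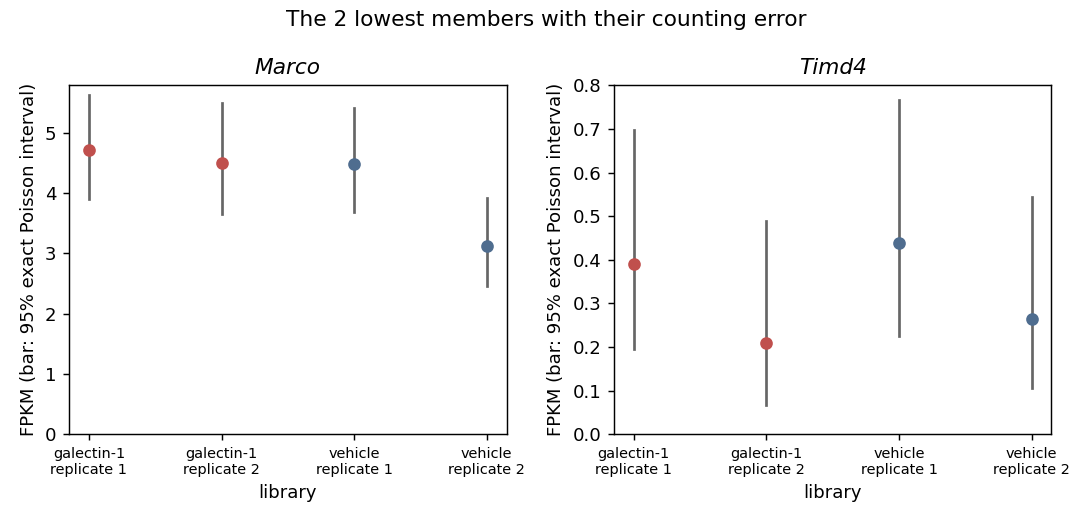
FPKM of Marco (left) and Timd4 (right) in each library, galectin-1 in red and vehicle in blue, with exact 95% Poisson intervals from the recovered fragment numbers. For Marco 3 libraries lie between 4.49 and 4.71 FPKM and vehicle replicate 2 at 3.13 FPKM; for Timd4 the intervals of all 4 libraries overlap.

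The other genes of these pathways were read from 5 lists with 97 distinct symbols, of which 79 were tested. Of these, 1 rose and 0 fell, which is 1.27% against 1.19% of all tested genes. An unadjusted p under 0.05 was found for 20 of the 79, or 25.3%, against 23.2% of all tested genes. Differences were above 0 for 59 of the 79, or 74.7%, against 50.7% of all tested genes. With each library scaled to the same total these shares were 62.0% and 44.2%. The median difference of all genes was 0.00, and 0.02 at a minimum mean of 5 FPKM. The part of expression level in these shares was not tested.

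Among 18 tested receptors and bridging molecules for dying cells besides the 10, none passed, 6 had an unadjusted p under 0.05 and the median log2 difference was 0.06. Anxa1, a phospholipid-binding protein that resolves inflammation, had 1187 and 1118 FPKM with galectin-1, against 1260 and 1280 FPKM with vehicle (-0.14, adjusted p = 0.106). Trem2, a lipid-sensing receptor of macrophages, had 479 and 496 FPKM with galectin-1, against 452 and 458 FPKM with vehicle (0.10, adjusted p = 0.135). Thbs1, which encodes thrombospondin 1, the bridge between dying cells and Cd36, had 14.6 and 16.4 FPKM with galectin-1, against 12.3 and 13.4 FPKM with vehicle (0.25, adjusted p = 0.139). Cd300lb, a phosphatidylserine-binding immunoglobulin-like receptor, had a log2 difference of 0.35 (adjusted p = 0.170). Havcr1, Megf10 and Tulp1 were listed at 0 in all 4 libraries.

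Of 13 tested scavenger receptors besides the 10, none passed, 2 had an unadjusted p under 0.05 and the median was 0.06. The mannose receptor gene Mrc1 had 75.9 and 74.7 FPKM with galectin-1, against 67.8 and 66.5 FPKM with vehicle (0.16, adjusted p = 0.0831). Cd5l, a secreted scavenger protein of macrophages, and Scarf2, a scavenger receptor of class F, had log2 differences of 0.07 and -0.27, with adjusted p of 0.255 and 0.258.

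Of 27 tested genes of engulfment and digestion, none passed, 5 had an unadjusted p under 0.05 and the median was 0.05. Crk, an adaptor upstream of the guanine nucleotide exchange factor Dock1, had 56.5 and 55.4 FPKM with galectin-1, against 48.4 and 49.2 FPKM with vehicle (0.19, adjusted p = 0.0690). Vav1, another exchange factor for Rac, had 61.8 and 63.7 FPKM with galectin-1, against 54.3 and 55.6 FPKM with vehicle (0.19, adjusted p = 0.0749). Rab5a, a GTPase of early phagosomes, had a log2 difference of 0.13 (adjusted p = 0.116). Abca7, a lipid transporter, had one of -0.23 (adjusted p = 0.144).

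Of 9 tested genes for signals that hold phagocytes back and for receptor shedding, none passed, 2 had an unadjusted p under 0.05 and the median was 0.02. Lilrb3, an inhibitory receptor, had a log2 difference of -0.11 (adjusted p = 0.142). Rhbdf2, which brings the sheddase Adam17 to the surface, had one of 0.11 (adjusted p = 0.154). Adam17, the protease that cuts Mertk from the membrane, had 95.5 and 91.6 FPKM with galectin-1, against 90.5 and 88.3 FPKM with vehicle (0.06, adjusted p = 0.358). Adam10, a related sheddase, had a log2 difference of 0.08 (adjusted p = 0.387).

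Among 14 tested genes for nuclear receptors, macrophage transcription factors and lipid efflux, 1 rose, 0 fell and 13 did not pass. In this list 5 of 14 had an unadjusted p under 0.05, against 23.2% of all tested genes in either direction. All 5 were higher with galectin-1, and the median of the list was 0.05. The gene that rose was Maf, a transcription factor of resident macrophages, at 106 and 108 FPKM with galectin-1, against 88.6 and 88.7 FPKM with vehicle (log2 difference 0.27, standard error 0.03, limma, adjusted p = 0.0371). Its adjusted p was 0.0611 with each library scaled to the same total, and between 0.131 and 0.173 with any 1 library left out. It also missed the threshold with no filter on low values (0.130) and in limma without the trend (0.138). Fabp4, a fatty acid-binding protein and a known target of Pparg, had 94.0 and 91.8 FPKM with galectin-1, against 68.4 and 76.6 FPKM with vehicle (0.36, adjusted p = 0.0557). Plin2, which coats lipid droplets, and the cholesterol exporter gene Abcg1 had log2 differences of 0.09 and 0.12, with adjusted p of 0.154 and 0.176. Pparg itself, a nuclear receptor that drives Cd36 in macrophages, had 9.91 and 9.65 FPKM with galectin-1, against 10.7 and 10.3 FPKM with vehicle.

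**Figure D5:**
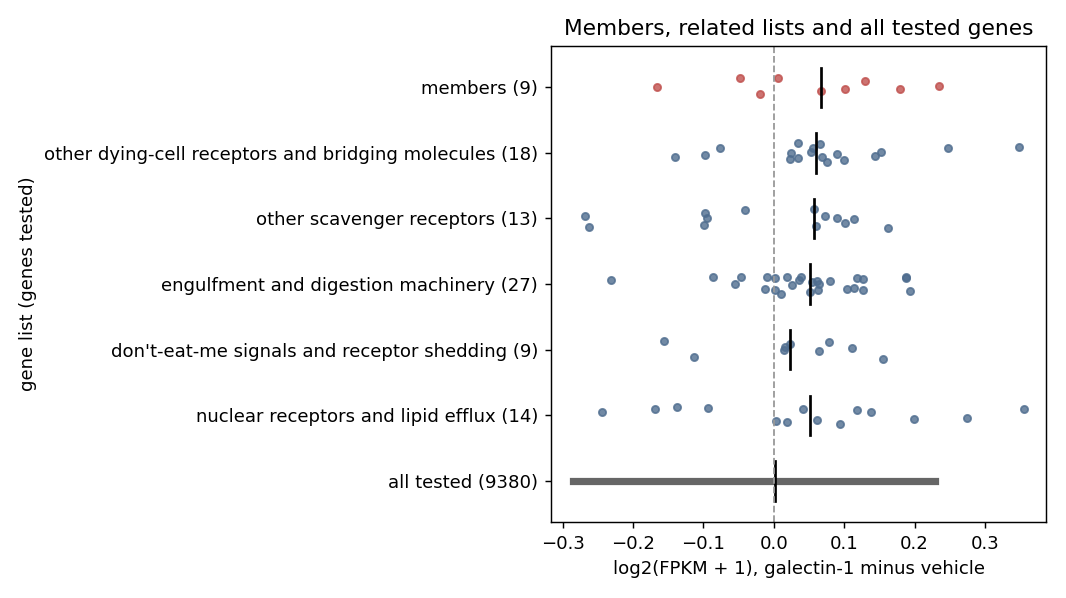
Difference in log2(FPKM + 1), galectin-1 minus vehicle, for the 9 tested members (red), the tested genes of the 5 related lists (blue) and all tested genes (grey bar, 5th to 95th percentile, -0.28 to 0.23); black lines are medians. The medians of the members (0.07) and of the lists (0.02 to 0.06) lie above that of all genes (0.00), and most points lie within the grey bar. At a minimum mean of 5 FPKM, not drawn, the median of all genes was 0.02.

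Because Maf was the gene of these lists that passed, the promoters of the 10 genes were searched for TGCTGA, the core of the Maf recognition element, on both strands of the 250 bases before the start that RefSeq gives for GRCm38.p6. Windows were available for 9 of the genes; Msr1 had no entry. The element was found for Cd36, Timd4 and Stab1, 3 of the 9, and in 16.1% of the 32851 windows of the whole table. The stretches around it are shown with the element, or its reverse complement TCAGCA, in capitals.
Cd36 (chr5:17835897-17835929, minus strand): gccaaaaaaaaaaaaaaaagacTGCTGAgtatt
Timd4, distal (chr11:46810627-46810676, plus strand): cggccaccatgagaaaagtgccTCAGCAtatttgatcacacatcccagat
Timd4, proximal (chr11:46810733-46810782, plus strand): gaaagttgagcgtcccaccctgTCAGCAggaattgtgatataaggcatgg
Stab1 (chr14:31168657-31168706, minus strand): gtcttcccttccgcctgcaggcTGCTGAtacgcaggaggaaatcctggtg
The element lay 5 bases before the start used in Cd36, 37 in Stab1, and 144 and 38 in Timd4. For Cd36 that start is an internal one, well inside the gene interval given above, and the promoter at the 5′ end of that interval was not searched. Its presence went with no common level or difference: Cd36 was the second most abundant of the 10 genes, Stab1 was above only Marco and Timd4 in level and had a difference near 0, and Timd4 was near the floor. A match of 6 letters is a description of the sequence and not a binding site.

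The labelled cell type was checked against markers. All 10 macrophage markers were tested and lay above 0 in their difference, against 50.7% of all tested genes, with a median of 0.11. Their median level was 435 FPKM, and the part of expression level in this was not tested. The summed level of the markers was 11519 and 11510 FPKM with galectin-1, against 10669 and 10678 FPKM with vehicle. Csf1r, the receptor of the macrophage growth factor, had a log2 difference of 0.15 (adjusted p = 0.0614) and the lysozyme gene Lyz2 one of 0.13 (adjusted p = 0.0694). The difference of Msr1 was of that size, and the part of these markers in it was not tested. In bulk samples fewer cells of a type and less RNA per cell cannot be told apart.

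Gas6 and Mfge8 are also made by stromal cells. Of 15 fibroblast markers 7 were tested and none passed. All 7 differences were positive, against 50.7% of all tested genes. The summed level of the 15 markers was 32.2 and 32.0 FPKM with galectin-1, against 24.9 and 25.9 FPKM with vehicle, and the members of the list differed in level. Pdgfra, Lum and Thy1 were at or below 0.221 FPKM in each library. Dcn, which encodes decorin, had 4.66 and 3.38 FPKM with galectin-1, against 3.09 and 3.05 FPKM with vehicle, and the collagen gene Col1a2 had 3.49 and 3.37 FPKM with galectin-1, against 2.81 and 3.38 FPKM with vehicle. The part of such cells in the levels of Gas6 and Mfge8 was not tested. Fn1 and Bgn, matrix genes, had log2 differences of 0.38 and 0.31 (adjusted p = 0.0848 and 0.120). Of 13 dendritic cell markers 6 were tested and 1 fell, Fscn1, with 7.84 and 8.18 FPKM with galectin-1, against 11.3 and 11.7 FPKM with vehicle (-0.47, adjusted p = 0.0425, or 0.140 to 0.173 with any 1 library left out, 0.130 with no filter and 0.138 without the trend). Their summed level was 27.4 and 28.1 FPKM with galectin-1, against 32.8 and 35.0 FPKM with vehicle. Fscn1 and Ccl22 were the highest of these markers in each library. Ccl22 had 7.23 and 7.46 FPKM with galectin-1, against 8.97 and 9.12 FPKM with vehicle. Differences were above 0 for 2 of the 6 tested. Flt3, Zbtb46, Xcr1 and Clec9a were at or below 0.543 FPKM in each library. The part of dendritic cells in this sum was not tested. Of 10 endothelial markers, which include Stab2, the relative of Stab1, 3 were tested and none passed, with sums of 19.1 and 20.4 FPKM with galectin-1, against 20.3 and 19.8 FPKM with vehicle. Few markers of other types were tested: 2 of neutrophils, 1 each of platelets, B cells, and T and NK cells, and 4 of osteoclasts. None of them passed. The platelet marker tested, Pf4, had 160 and 156 FPKM with galectin-1, against 145 and 150 FPKM with vehicle (0.10, limma, adjusted p = 0.172). No marker of mast cells, basophils, eosinophils or erythroid cells reached the expression minimum. Among nuclear and small RNAs, Neat1 was lower with galectin-1 (44.9 and 44.2 FPKM, against 97.1 and 106 FPKM with vehicle; adjusted p = 0.00174, or 0.0792 in limma without the trend). Malat1, another nuclear RNA, had 66.9 and 78.7 FPKM with galectin-1, against 94.5 and 96.2 FPKM with vehicle (-0.39, adjusted p = 0.0694). Whether RNA recovery differed between the groups was not tested.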

How the data were processed

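RNA was sequenced from 4 samples after stranded poly(A) library preparation, per the labels' protocols. The authors deposited 1 FPKM value for each gene in each library. Cufflinks 2.2.1, SAMtools 0.1.19, Bowtie2 2.2.3 and TopHat2 2.0.13 are named, without roles, in the submitters' processing notes, with the build mm10. The sources used here do not give the annotation, strand setting or treatment of multi-mapped reads, and FPKM of close relatives depend on them. Groups came from the sample titles.

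No further normalization was applied, and log2(FPKM + 1) was analysed for the 9380 symbols with a mean of at least 1 FPKM. The groups were compared in limma 3.58.1 (R 4.3.3) with a variance trend, 2-sided, at a threshold of 0.05 on the adjusted p (Benjamini-Hochberg). There were 2 residual and 3.89 prior degrees of freedom. Fold changes on this scale understate changes of low genes. The test was also tried on 20 simulated data sets, with the spreads of the fit and 200 changed genes in each. It recovered 27.6% of the genes changed by 0.25 log2, 78.5% at 0.5 and 98.9% at 1, with 6.07% of calls false. The simulated noise was normal and independent, and the shares are averages over genes of all spreads. They are therefore not the share to be recovered for a given member. Standard errors of the tested members ran from 0.03 (Msr1) to 0.14 (Marco). The largest difference of a tested member was 0.24, that of Marco.

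Library totals were 541138 to 557661 FPKM. Relative depth came from the most frequent ratio among 1366 genes below 0.3 FPKM. It was 1.03, 0.872 and 0.969 for galectin-1 replicates 1 and 2 and vehicle replicate 2, relative to vehicle replicate 1. Intervals on fragment numbers are exact Poisson, or binomial for a ratio. Of the 212 distinct symbols of the members and the lists, 209 were found, some under an older name. Coordinates, counted from 1, and promoters are from RefSeq, GRCm38.p6, the assembly of mm10; transcript lengths and exon overlaps are from GENCODE M21.

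The members, lists and tests were chosen with earlier results of these data known. The members were always named; from each related list, genes past the threshold and those of the 4 smallest p were named, and from marker lists up to 2; a gene of the scavenger receptor list is not reported here. Itgav, Itgb3, Itgb5, Pparg, Tyro3 and Nt5dc2, as partners or neighbours of members, were named after their values were seen. So were genes at 0 and the markers Pdgfra, Lum, Thy1, Dcn, Col1a2, Flt3, Zbtb46, Xcr1 and Clec9a. Alternatives were 2 pseudocounts, 2 filters, 3 scalings, no trend, a replicate block, no small RNA entries, each library left out, and, chosen after seeing the data, recovered fragment numbers.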

Additional observations from a re-analysis of the deposited data

How the results depend on the processing

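None of the members tested passed in any of the 14 limma alternatives, of which a minimum mean of 5 FPKM tested 8 and left out Marco; the smallest adjusted p was 0.0611, for Msr1 without small RNA entries. Msr1, Pros1, Cd36, Mfge8, Marco and Mertk kept their sign wherever they were tested. The sign of Gas6 turned after quantile normalization (-0.034), scaling to a common total (-0.018), scaling to the median ratio (-8.28e-06) and without vehicle replicate 2; with any 1 library left out it ran from -0.017 to 0.029. Axl turned without vehicle replicate 2 (range -0.10 to 0.0065) and Stab1 without vehicle replicate 1 (range -0.058 to 0.018); in all, 6 of 129 values of single members turned, and the cause was not tested. The members' median ran from 0.03 to 0.07. The 112 calls over all genes (57 higher, 55 lower) depended on the setting: 3 with no filter, 226 at a minimum mean of 5 FPKM, 2 in limma without the trend and 365 without small RNA entries. They were 71 after quantile normalization (24 higher, 47 lower) and 52 after scaling to a common total (19 higher, 33 lower), and 15 to 23 with any 1 library left out. With the replicate number as a block there were 240 calls. The labels do not say that equal numbers share a culture or day, and the replicate differences of the 2 groups had a correlation of 0.01, so the numbers were not taken to pair the libraries; the block changed no call of a member. Missing the threshold does not show that levels were equal; depth limits Timd4 and Marco most.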
